A study of Gossypium hirsutum with 6 samples.

Results

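A set of 118 genes of upland cotton (Gossypium hirsutum) roots is described here, each of which was higher after exposure to PS-COOH and had a direct neighbour on its chromosome that was higher too. PS-COOH is the usual abbreviation of carboxyl-modified polystyrene. The set was drawn from a deposited table of 81166 gene identifiers, each with its abundance in FPKM (fragments per gene, corrected for gene length and library size). The 42358 identifiers with an A or D chromosome code and at least 1 FPKM in 3 or more libraries were put in the order of their gene numbers, and these are called kept genes. A gene was taken where its mean in the control libraries was at least 1 FPKM, its mean of log2(FPKM + 1) was at least 1 higher in PS-COOH than in control libraries, its lowest PS-COOH value lay above its highest control value, and the kept gene next to it met the same 3 conditions. These conditions were met by 620 kept genes, of which 118 had such a neighbour and 494 had none. The remaining 8 lie in the last part of D05, from gene number 366400 on, which was left out.

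The study kept cotton roots for 9 days with 300 mg/l PS-COOH or with 0 mg/l, the control, labelled CK. Each group holds 3 libraries of total root RNA. The cultivar, the age of the plants, the particle size and the number of plants behind each library were not among the labels. Nor do the labels state that the 3 libraries are separate cultures, and p-values measure only the spread between them, which may be technical. Libraries held 64403 to 65242 identifiers above 0 FPKM in the PS-COOH group and 63090 to 63417 in the control group. Across the 45258 identifiers of any kind that passed the filter, log2(FPKM + 1) values had correlations of 0.984 to 0.988 within a group of libraries and of 0.947 to 0.958 across the groups (Pearson's r across genes, which are not independent replicates).

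Neighbouring plant genes are often copies of each other. Tandem duplication leaves members of a gene family side by side, and such copies can keep a common pattern of expression. Neighbours that are no relatives can also be expressed together, where they share a stretch of open chromatin or a regulatory region. Cotton adds a further layer, since it is an allotetraploid that carries an A and a D subgenome from different ancestors, and most of its genes have a counterpart, the homoeologue, on the chromosome of the same number in the other subgenome. The deposited table names no gene, and 0 of its identifiers matched the RefSeq table of 99454 cotton genes. Members are therefore called by chromosome code and gene number, no function is given to any of them, no gene list by function could be formed, and the root label could not be checked against marker genes. The sequences of the members were not analysed here. If neighbours are close copies of each other, a fragment may match more than 1 of them, and the level of each is uncertain.

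The 118 members formed 52 groups of direct neighbours. Of these, 42 were pairs, 8 held 3 genes, 1 on D13 held 4 and 1 on A04 held 6. The A subgenome held 59 members in 26 groups and the D subgenome the same numbers, which is 0.284% of its kept genes in A and 0.274% in D. A04 and D13 had the most members, 11 each. No group lay on A03, D03 or D06, or on the part of D05 that was searched.

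The members were selected on their FPKM values in all 6 libraries, so the values of this contrast are given as a description and were not tested. The ratio of mean FPKM, PS-COOH over control, was between 2.09 and 6.53 with a median of 2.95, and 19 of the 118 members reached a ratio of 4. On the log2(FPKM + 1) scale the difference was between 1.01 and 2.61 with a median of 1.35; that scale shrinks changes near 0 FPKM. All 118 members also passed a limma moderated test across all tested genes (adjusted p under 0.05), a test that rests on the values that chose them. Over all 45258 tested genes, 15.7% passed that test with higher values in PS-COOH libraries. The 494 genes that met the conditions alone had ratios between 2.03 and 10.2 with a median of 2.85, so both sets, which the same conditions chose, overlapped widely.

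**Figure D1:**
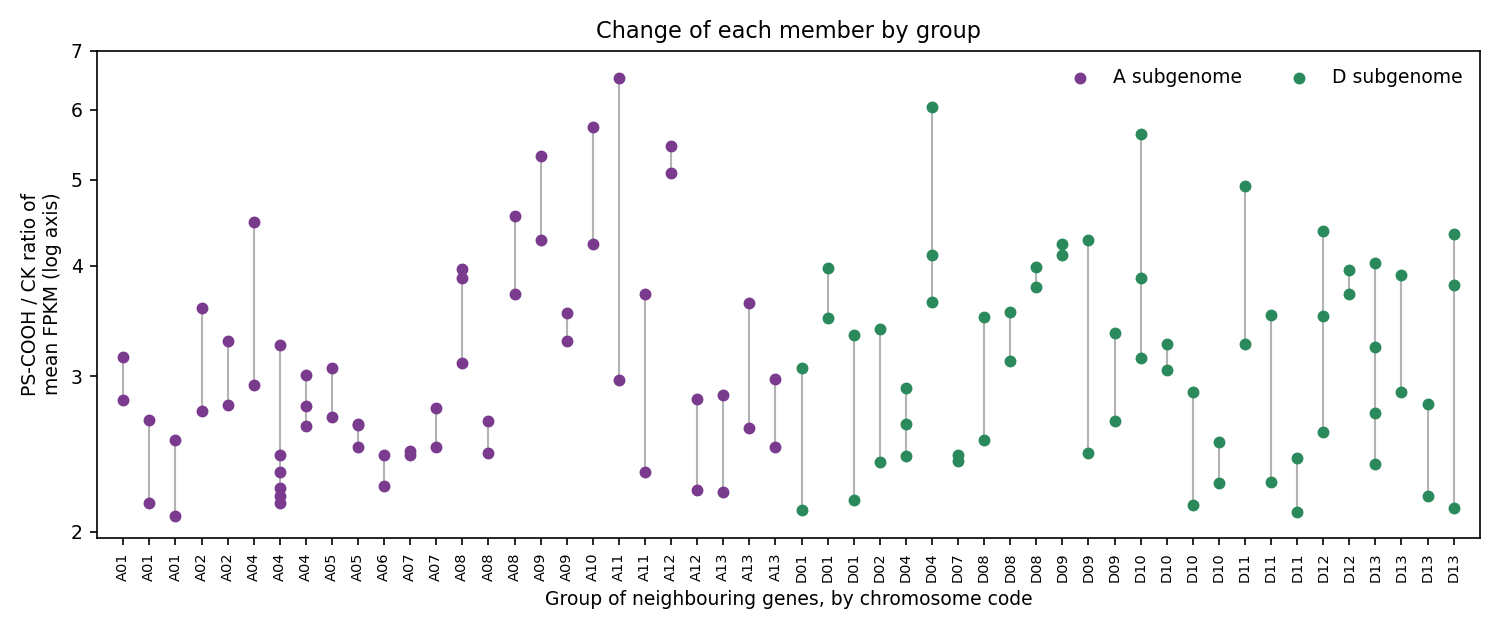
Each point is 1 of the 118 members, with the ratio of its mean FPKM in PS-COOH over control libraries on a log axis, and each column is 1 of the 52 groups in chromosome order, the A subgenome left and the D subgenome right; grey lines join the members of a group. Ratios lie between 2.09 and 6.53, and the gap between members of a group differs widely from group to group.

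Most members were low to moderate in abundance. Their mean FPKM ranged from 3.49 to 6366 in PS-COOH libraries, with a median of 16.8, and from 1.06 to 2838 in control libraries, with a median of 5.68. In the control libraries 84 members averaged under 10 FPKM and 9 averaged 100 FPKM or more. Genes that met the conditions alone had medians of 10.7 FPKM in PS-COOH and 3.55 FPKM in control libraries. Within a group of libraries, the median coefficient of variation of a member was 6.06% in PS-COOH libraries and 13.6% in control libraries. The rule allows no overlap between the groups of libraries and so favours genes of low spread. The spread over all kept genes is not given, so these values do not set the members apart.

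The members together made up 5.02%, 5.11% and 5.21% of the summed FPKM in PS-COOH replicates 1 to 3, against 2.31%, 2.17% and 2.30% in control replicates 1 to 3. Nearly all of this came from 2 groups, the run of 6 on A04 and the run of 3 on A05, which held 91.1% of the members' FPKM in PS-COOH libraries. The other 109 members summed to 2746 ± 49.8 FPKM in PS-COOH libraries and 918 ± 32.5 FPKM in control libraries (SD, n = 3 each), a ratio of 2.99. For all 118 members the ratio of the sums was 2.42. FPKM is a share of each library, so these sums do not give amounts of RNA.

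The A04 run, gene numbers 019400 to 020000, held the most abundant members. Gohir.A04G019900.v2.1 had 6233, 6286 and 6581 FPKM in PS-COOH libraries, against 2922, 2643 and 2950.0 FPKM in control libraries. Gohir.A04G020000.v2.1 had 5356, 5708 and 5508 FPKM in PS-COOH libraries, against 2374, 2136 and 2265 FPKM in control libraries. Gene 019400 had 4372, 4399 and 4704 FPKM in PS-COOH libraries, against 2133, 1973 and 2026 FPKM in control libraries. In these 3 genes the lowest PS-COOH value lay above the highest control value, as the rule demands. The ratios of the means were 2.24, 2.45 and 2.20 in the order given.

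The other 3 genes of the A04 run differed in level but little in ratio, with 1 exception. Gene 019500 had 1599.9, 1756 and 1836 FPKM in PS-COOH libraries, against 810.3, 815 and 780.1 FPKM in control libraries. Gene 019600 had 1049, 1002 and 1181 FPKM in PS-COOH libraries, against 464, 433 and 486 FPKM in control libraries. Between them lies gene 019550, far lower than its neighbours, with 20.8, 18.0 and 16.9 FPKM in PS-COOH libraries, against 4.15, 8.46 and 4.54 FPKM in control libraries. The ratios of the means were 2.16 for gene 019500, 2.34 for gene 019600 and 3.25 for gene 019550. Levels within this run thus spanned a 497-fold range in control libraries, while the ratios stayed between 2.16 and 3.25.

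The A05 run, gene numbers 282800 to 283000, was more even in ratio. Gene 282800 had 4849, 5235 and 5099 FPKM in PS-COOH libraries, against 1964, 1808 and 1963 FPKM in control libraries. Gene 282900 had 2071, 2099 and 2144 FPKM in PS-COOH libraries, against 801, 772 and 815 FPKM in control libraries. Gene 283000 had 1711, 1719.7 and 1778 FPKM in PS-COOH libraries, against 699, 664 and 724 FPKM in control libraries. The 3 ratios were 2.65, 2.64 and 2.50, and in each gene the groups of libraries lay apart, as the rule demands. The kept gene before this run, 282600, met the other conditions but averaged 2.84 FPKM in PS-COOH and only 0.723 FPKM in control libraries, and so is no member.

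The direct neighbours of the A04 run and the gene after the A05 run did not pass the test. On A04, the gene before the run, 019100, had 3.01 FPKM in PS-COOH and 2.98 FPKM in control libraries on average, and the gene after it, 020050, had 1.30 FPKM in PS-COOH and 1.51 FPKM in control libraries. Further out, 5 of the 12 flanking genes within 6 positions of the A04 run rose (limma, adjusted p under 0.05) and 1 fell. Those that rose were 018500, 018600, 020200, 020800 and 021000, and the largest difference among them was 0.82 on the log2(FPKM + 1) scale, in gene 020800. On A05, the gene after the run, 283100, averaged 3.78 FPKM in PS-COOH and 3.34 FPKM in control libraries. Of the 12 flanking genes of the A05 run, 2 rose and 3 fell. Over all kept genes, 16.4% rose and 15.2% fell, and counts out of 12 are too small to be set apart from these shares. A gene 2 kept positions before the first A05 member, 282500, went the other way: it fell, with 34.6 FPKM in PS-COOH and 64.6 FPKM in control libraries (limma, adjusted p under 0.05).

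**Figure D2:**
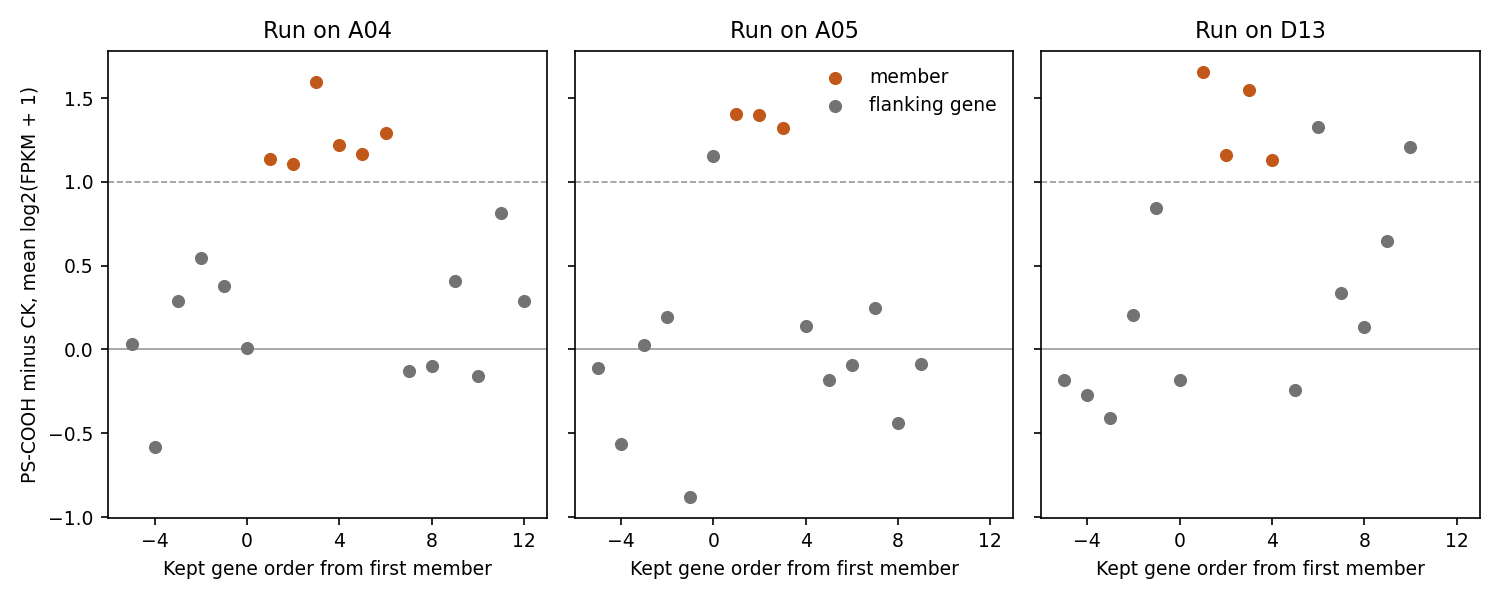
The difference of mean log2(FPKM + 1), PS-COOH minus control, is plotted for kept genes around the A04 run of 6, the A05 run of 3 and the D13 run of 4, in gene order from the first member (position 1). Members (orange) lie above 1, the dashed line, which is a condition of their choice; flanking genes (grey) range from -0.58 to 0.82 on A04, from -0.88 to 1.15 on A05 and from -0.41 to 1.33 on D13.

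Below these runs, 4 groups summed to more than 40 FPKM in control libraries. On D13, the group at 210200 to 210250 is led by gene 210200, with 224, 231 and 237 FPKM in PS-COOH libraries, against 114, 102 and 109 FPKM in control libraries. Its neighbours were much lower. Gene 210225 had 8.08, 8.08 and 7.66 FPKM in PS-COOH libraries, against 2.77, 0.862 and 1.84 FPKM in control libraries, and gene 210250 had 11.0, 10.3 and 11.8 FPKM in PS-COOH libraries, against 2.55, 3.21 and 2.93 FPKM in control libraries. The leading gene had the smallest ratio of the 3, at 2.13, and gene 210225 had the largest, at 4.35.

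On D02, gene 019651 had 123, 152 and 131 FPKM in PS-COOH libraries, against 61.1, 45.3 and 62.4 FPKM in control libraries. The gene next to it, 019700, had 97.5, 94.5 and 96.5 FPKM in PS-COOH libraries, against 27.5, 27.6 and 29.9 FPKM in control libraries. The second gene was thus lower in each library but had the larger ratio, 3.39 against 2.40.

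The D04 group at 164040 to 164160 had the largest ratio of summed FPKM of all 52 groups, 5.42. Gene 164160 had 252, 274 and 267 FPKM in PS-COOH libraries, against 45.0, 40.5 and 45.6 FPKM in control libraries, a ratio of 6.05. Gene 164040 had 37.6, 36.2 and 39.0 FPKM in PS-COOH libraries, against 9.23, 10.8 and 10.9 FPKM in control libraries, a ratio of 3.64. Gene 164080 had 26.5, 33.3 and 26.1 FPKM in PS-COOH libraries, against 6.64, 7.46 and 6.78 FPKM in control libraries, a ratio of 4.11. All 9 PS-COOH values of this group lay above 26 FPKM, and gene 164160 alone held 80.0% of the group's FPKM in PS-COOH libraries, against 71.7% in control libraries.

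Large ratios of summed FPKM were also found in 3 pairs, and those on A12 and A10 were of low genes. The A12 pair had 11.7 ± 1.79 and 7.04 ± 0.168 FPKM in PS-COOH libraries (genes 104400 and 104600), against 2.14 ± 0.295 and 1.38 ± 0.118 FPKM in control libraries (SD, n = 3 each), and its sums differed 5.32-fold. The A10 pair had 5.75 ± 1.14 and 11.4 ± 1.78 FPKM in PS-COOH libraries (genes 051000 and 051200), against 1.36 ± 0.418 and 1.98 ± 0.756 FPKM in control libraries (SD, n = 3 each), and its sums differed 5.13-fold. In each of these 4 genes the PS-COOH values lay above the control values, as the rule demands, but control values near 1 FPKM make the ratios uncertain.

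The A11 pair was the least even of the 3. Gene 025950 had 55.1, 58.9 and 60.3 FPKM in PS-COOH libraries, against 10.5, 10.3 and 5.91 FPKM in control libraries, and its ratio of 6.53 was the highest of all members. Gene 025701 had 17.8, 19.2 and 18.6 FPKM in PS-COOH libraries, against 6.79, 7.42 and 4.54 FPKM in control libraries, a ratio of 2.97. In both genes control replicate 3 was the lowest of the control libraries.

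The D13 run of 4, at 050101 to 050400, was of low abundance. Its members averaged 8.38 ± 0.875, 6.36 ± 0.234, 20.2 ± 2.78 and 13.9 ± 0.750 FPKM in PS-COOH libraries, against 2.08 ± 0.996, 2.33 ± 0.702, 6.23 ± 0.936 and 5.81 ± 0.645 FPKM in control libraries (SD, n = 3 each, in gene order). Further along the same stretch, kept genes 050800 and 051400 met the conditions without a direct neighbour that did so. Gene 050800 averaged 12.8 FPKM in PS-COOH and 4.70 FPKM in control libraries, and gene 051400 averaged 9.09 FPKM in PS-COOH and 3.41 FPKM in control libraries. The next group on D13, genes 051500 and 052600, starts shortly after, so that this stretch holds 6 members in 2 groups.

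**Figure D3:**
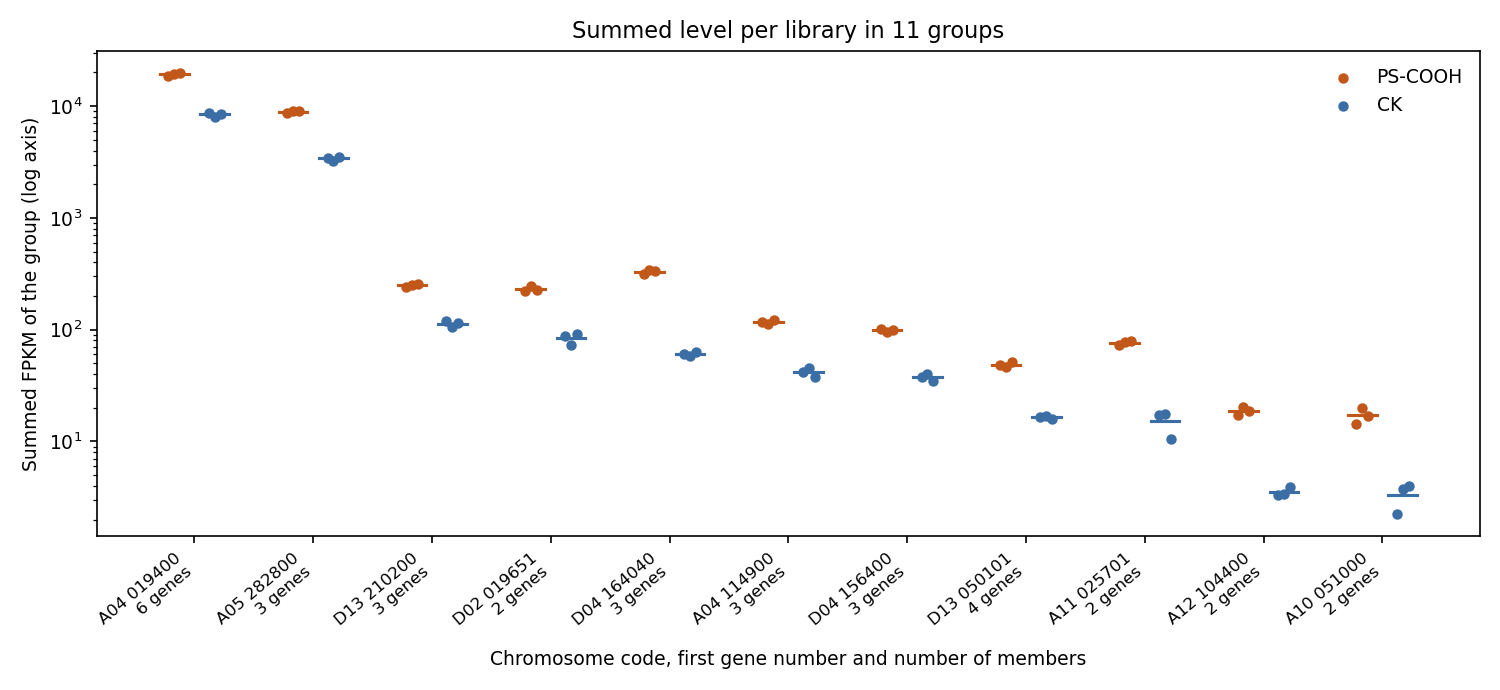
The summed FPKM of the members of 11 groups is shown for each library on a log axis, with the 3 PS-COOH libraries (orange) left of the 3 control libraries (blue) and a bar at the mean. The groups are those of 4 or more members, the 6 smaller ones with the highest sum in control libraries and the 4 smaller ones with the highest ratio. In each group the PS-COOH libraries lie above the control libraries, which the choice of members fixes.

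Members of a group differed less in their change than in their level, a pattern that the conditions favour. The ratio of the most to the least changed member of a group had a median of 1.25 over the 52 groups and was under 1.2 in 22 and at least 1.5 in 13, although the conditions cut off all ratios near 1 and so narrow this spread. Levels were not bounded from above, and the highest member exceeded the lowest in control libraries by a median of 2.18-fold, by at least 5-fold in 9 groups. The same member was the most abundant of its group in both conditions in 48 of the 52 groups, which ratios of like size favour. Genes that met the conditions alone also differed less in change than in level. Their ratios had lower and upper quartiles of 2.46 and 3.41, and their control means had quartiles of 1.95 and 7.77 FPKM. The pattern is therefore not particular to neighbours.

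In 34 groups no other identifier lay between the members. The other 18 groups enclosed 45 identifiers that had not passed the filter of 1 FPKM in 3 libraries, up to 17 in the D13 pair 051500 and 052600. Of these 45, 15 were at 0 in all 6 libraries. Among the 30 with a value above 0, the lowest PS-COOH value was above the highest control value in 6 (20.0%) and the reverse held in 3, where over all 21629 such low chromosome-coded identifiers 12.2% were higher without overlap. In a limma fit without the filter 2 of these 30 rose and 1 fell (adjusted p under 0.05). Of the 21629 low identifiers, 4.54% rose in that fit. The shares of the low identifiers that fell or were lower without overlap were not computed. An identifier that failed the filter cannot be at 1 FPKM or more in all PS-COOH libraries, so its rise was limited by its choice. The identifier with the highest PS-COOH mean among the 45, A10 gene 051100, lies between the members of the A10 pair. It had 1.91, 2.14 and 0.936 FPKM in PS-COOH libraries, against 0.358, 0.289 and 0.477 FPKM in control libraries. Its direction was that of its neighbours, but it was picked for its PS-COOH level, which favours this direction.

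The genes around the groups were not used by the rule, apart from the direct neighbours, which had to fail it. Among the 402 kept genes 2 to 5 positions away from the nearest member, 67 rose (16.7%) and 75 fell (18.7%; limma, adjusted p under 0.05), while 16.4% of all kept genes rose and 15.2% fell. The share that rose was therefore near the background. Their median difference on the log2(FPKM + 1) scale was -0.031, against -0.011 for all kept genes. At positions 6 to 10, 87 of 490 genes rose (17.8%) and 77 fell (15.7%).

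Close to the groups the share was higher, a difference that was not tested. Of the 104 direct neighbours, 27 rose (26.0%) and 17 fell (16.3%), although they are the genes that failed the conditions for a member. At 2 positions, 24 of 102 genes rose (23.5%) and 17 fell (16.7%). At 3, 4 and 5 positions 20 of 102, 14 of 100 and 9 of 98 genes rose. Rises of at least 1 on the log2 scale were found in 8 of the 102 genes at 2 positions (7.84%) and in 2 of the 300 at 3 to 5 positions, against 1.88% of all kept genes. Of the genes at 2 positions, 6 met the conditions themselves and were separated from a group by 1 kept gene. By group, 5 of the 52 had 2 direct neighbours that rose, 17 had 1 and 30 had none, and in 15 groups a direct neighbour fell.

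**Figure D4:**
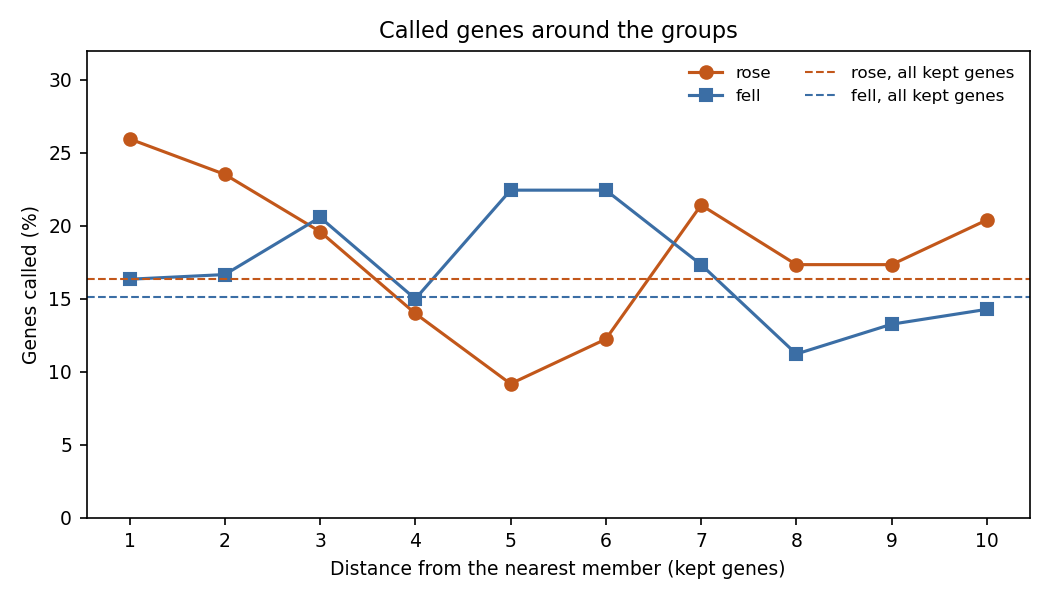
The percentage of kept genes that rose (orange) or fell (blue; limma, adjusted p under 0.05) is plotted against their distance from the nearest member, with the share over all kept genes as dashed lines at 16.4% and 15.2%. The share that rose is 26.0% at 1 position and 23.5% at 2, and from 4 positions on it scatters around the dashed line; each point holds 98 to 104 genes.

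Groups in the A and D subgenomes often lay at like places. The position of a group was taken as its place in the order of all identifiers of its chromosome, in percent. For 10 of the 26 A groups (38.5%) a D group lay on the chromosome of the same number within 2% of the order. Of all kept A genes, 6.73% lay as close to a D group. This closeness was noticed in these data and not tested, and gene order is only a rough guide to counterparts. Whether the paired groups are homoeologues was not analysed here.

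Several of these A and D groups held the same number of genes and had similar ratios, though not always similar levels. The A08 pair 238700 and 238800 summed to 47.3 FPKM in PS-COOH and 11.9 FPKM in control libraries, a ratio of 3.98, and the D08 pair 259400 and 259500 to 24.9 FPKM in PS-COOH and 6.44 FPKM in control libraries, a ratio of 3.86. They lay at 94.0% of the order on both chromosomes. The A01 pair 200900 and 201100 summed to 48.5 FPKM in PS-COOH and 21.7 FPKM in control libraries, and the D01 pair 190800 and 191000 to 55.9 FPKM in PS-COOH and 24.6 FPKM in control libraries, with ratios of 2.23 and 2.27. The A01 pair and the D01 pair each enclose 1 low identifier.

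On chromosome 04, at 78.3% of the gene order in A and 80.2% in D, both subgenomes held a group of 3 genes with consecutive numbers. The A04 genes 114900, 115000 and 115100 summed to 118, 112 and 123 FPKM in PS-COOH libraries, against 41.9, 45.1 and 37.6 FPKM in control libraries. The D04 genes 156400, 156500 and 156600 summed to 101, 95.0 and 99.9 FPKM in PS-COOH libraries, against 38.0, 39.8 and 34.9 FPKM in control libraries. The ratios were 2.84 and 2.62, and single genes had ratios between 2.63 and 3.01 on A04 and between 2.44 and 2.91 on D04.

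Other couples also agreed in direction, which the rule fixes, and their ratios were alike to differing degrees. The A11 pair led by gene 025950 had a ratio of summed FPKM of 5.06 and the D11 pair 025525 and 025575 one of 4.62. In each of these pairs the gene with the higher number had the larger ratio, 6.53 on A11 and 4.93 on D11. The ratios were 4.76 for the A09 pair 088200 and 088400 and 4.14 for the D09 pair 087900 and 088000, and they were 5.32 for the A12 pair and 3.80 for the D12 pair 108300 and 108400. On chromosome 10 the A10 pair had a ratio of 5.13 and lay between D10 groups with ratios of 4.31 (genes 052700 to 052900) and 3.15 (genes 061600 and 061700). On chromosome 13 the A13 pair 051700 and 051800 had a ratio of 2.37 and the D13 run of 4 one of 2.97. On chromosome 08 the A group 000165 to 000173 had a ratio of 3.72 and the D pair 010700 and 010800 one of 3.28. The A02 pair 017400 and 017500 summed to 9.32 FPKM in PS-COOH and 2.98 FPKM in control libraries, far below the D02 pair near its position, at 231 FPKM in PS-COOH and 84.6 FPKM in control libraries.

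**Figure D5:**
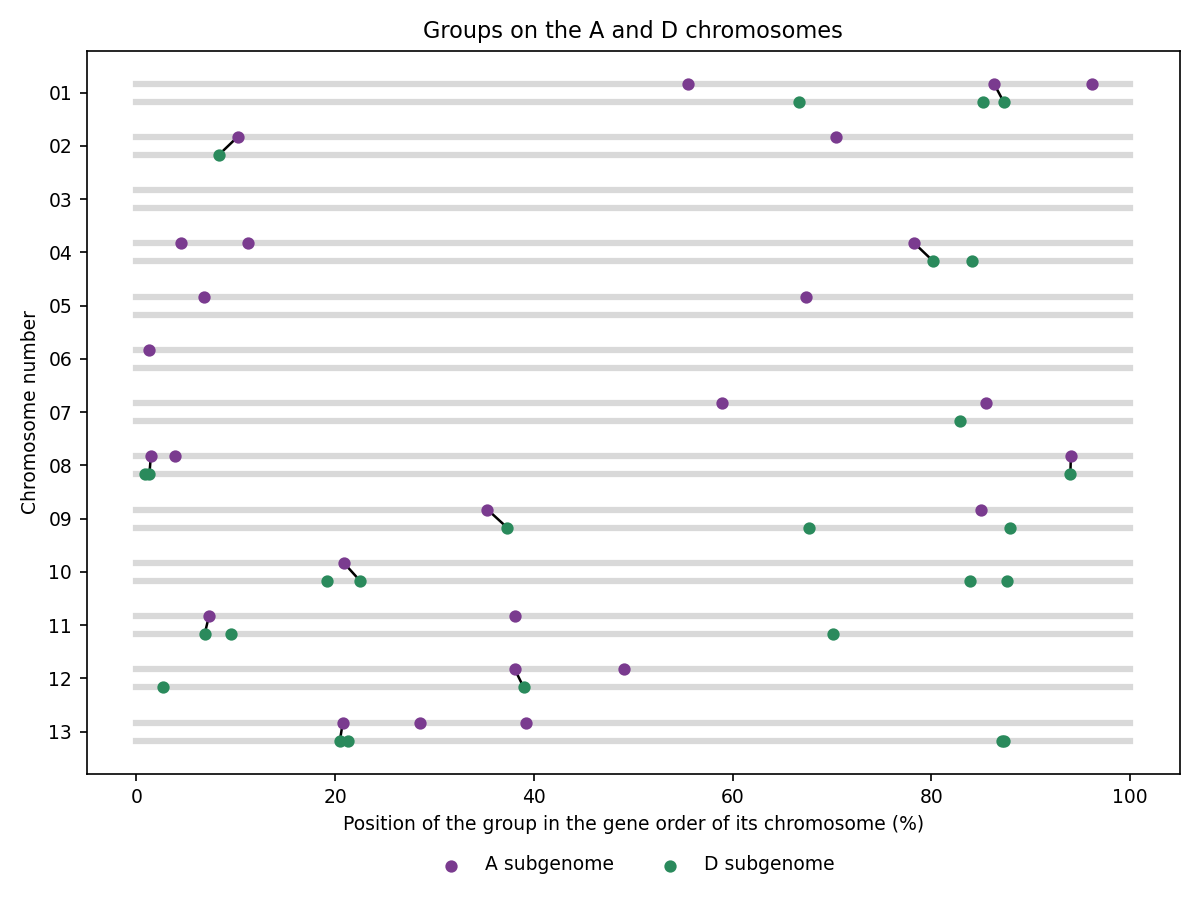
Each point is 1 of the 52 groups, placed by its percentage in the gene order of its chromosome, with the A chromosome above the D chromosome of the same number. Black lines join the 10 A groups to a D group within 2% of the order; no group lies on A03, D03, D05 or D06 outside the left-out part of D05.

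Some genes lay very near the conditions. The smallest difference among members was 1.01 on the log2(FPKM + 1) scale, in A01 gene 224100. Among the genes next to one that met the conditions, the nearest outside this limit was A01 gene 200850. It lies elsewhere on A01 than gene 224100 and had a difference of 0.998, with 13.4 FPKM in PS-COOH and 6.23 FPKM in control libraries. The lowest control mean of a member was 1.06 FPKM, in A09 gene 213638, and just outside D09 gene 122700 had a control mean of 0.986 FPKM and a PS-COOH mean of 3.58 FPKM. As a ratio of the lowest PS-COOH value over the highest control value, the narrowest separation of a member was 1.43, in D08 gene 009800. These 2 values were 5.86 FPKM and 4.09 FPKM. A09 gene 213640 failed only this condition, with 11.4, 7.19 and 13.9 FPKM in PS-COOH libraries, against 8.78, 1.60 and 2.58 FPKM in control libraries.

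The membership of single genes depended on these limits. When each library was left out in turn, 100 to 112 of the 118 were members again; an overlap between the groups cannot arise from leaving out a library. Under median-ratio scaling all 118 were. Quantile normalization kept 105, and 2 of the 118 then no longer lay apart between the groups. The difference in the most abundant members was then lost or smaller: on the log2(FPKM + 1) scale A04 gene 019400 had 0, against 1.14 without this scaling, gene 019900 had 0.082 against 1.17, gene 020000 had 0.22 against 1.29, and A05 gene 282800 had 0.75 against 1.40. Quantile normalization gives genes of the same rank the same value in each library, so a gene that keeps a rank at the top cannot differ.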

How the data were processed

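RNA of cotton roots was sequenced as paired-end reads of 150 bp (per the labels' protocols) in 3 PS-COOH and 3 control libraries, grouped by their titles. The authors deposited 1 table of FPKM values, 1 column per library. The submitters' processing notes list HISAT2 and StringTie, with no version or role. Which genome build and annotation were used, and how multi-mapping reads were handled, is not given in the sources used here. Such values do not correct for shifts in composition, such as a rise of a few abundant genes. No counts are given, so absolute depth is unknown. From the ratios of values under 0.1 FPKM, relative depths were 1.06, 1.10 and 1.04 for the PS-COOH libraries and 1, 1.00 and 0.973 for the control libraries.

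Members were found by the stated rule with pandas 2.3.3. A limma 3.58.1 moderated test (R 4.3.3) with a mean-variance trend and no covariate, on log2(FPKM + 1) values with Benjamini-Hochberg adjustment over 45258 identifiers, gave the calls for all genes and was tested on simulated data. Members and groups were chosen with earlier results of these data known, and the 2% limit of gene order was set after the positions were seen. Described one by one were groups of 4 or more members, the 6 smaller groups with the highest control sum and the 4 with the highest ratio; the 10 A and D couples, the genes between or beside groups and those nearest a limit were named after their values were seen. Deviations from the group means of same-numbered libraries correlated at -0.073, -0.061 and -0.0073, which gives no sign that replicate numbers mark pairs. No 2 libraries shared more than 1 identical value above 0. Figures were drawn with matplotlib 3.10.9.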

Additional observations from a re-analysis of the deposited data

How the results depend on the processing

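The number of members rested mainly on the limits of the rule. The 118 members in 52 groups became 192 in 87 with a pseudocount of 0.1, 49 in 20 with a control mean of at least 5 FPKM, and 24 in 11 with a difference of at least 1.5 on the log2 scale. They numbered 110 to 132 when each library was left out, in 48 to 59 groups, and 84 where no identifier of any level was allowed between members. The ratio of the members' summed FPKM, 2.42, was 2.99 without the A04 and A05 runs (added after the data were seen). In the other settings the members were chosen anew. The ratio was then 2.95 under quantile normalization (110 members) and 4.39 with the difference of at least 1.5 (24 members). With a library left out it was 2.37 to 2.46. Under quantile normalization most genes of the A04 and A05 runs fell below a difference of 1, so 2.95 is not the ratio of the same genes. Over all genes, 842 rose at least 2-fold, against 1703 when the pseudocount was 0.1 and 553 when 5 FPKM was required. The share that rose 2 to 5 positions from a group, 16.7%, was 11.4% to 19.2% with a library left out, 23.1% with the 5 FPKM filter, and 15.7% with a replicate block, although the replicate numbers gave no sign of pairing. The background moved as well: 7117 of all tested genes rose, against 5064 to 6630 with a library left out and 4845 with the 5 FPKM filter. The share over all kept genes is not given for these settings, so their flank shares cannot be read as above or below it. With a limit of 1% of the gene order, 6 A groups had a D group at a like position, against 10 at 2% and 13 at 5% (both added later), while 3.67% and 14.4% of kept A genes lay as close. Of 395 log2 differences of the 33 genes described one by one, 381 moved by less than the spread between libraries, 14 moved by more and none reversed. Much of this was fixed in advance. A filter leaves the difference of a gene as it is, so the values under the filter settings could not move. Members lie apart between the groups by the rule, so another pseudocount or a left-out library could not reverse a difference. Of the 14, 8 were the abundant A04 and A05 members under quantile normalization, with 0 for A04 gene 019400 to 1.11 for A05 gene 282900. The other 6 were values of low genes with a pseudocount of 0.1 or 0.5, and A12 gene 104600 moved with both. The median correlation of adjacent members after removing group means, 0.41, was 0.14 to 0.46 with a library left out, 0.25 where no identifier was allowed between members and -0.12 with the difference of at least 1.5 (all added after the data were seen); the cause was not tested. Absolute depth is unknown, and genes near 0 FPKM are the least certain.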

Other observations

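Within the groups of libraries, adjacent members varied together only weakly. After group means were removed, log2(FPKM + 1) values of the 66 adjacent member pairs correlated over 6 libraries with a median r of 0.41, within a range from -0.90 to 0.98, and r was above 0 in 41 pairs (62.1%). Over all 42332 adjacent kept pairs the median was 0.015 and 51.0% were above 0. The points share libraries and depth, and each r rests on 6 values. The median over members was 0.14 without control replicate 3 and 0.16 without control replicate 1, so this relation depends on which libraries are included.

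Most gene numbers of the kept genes are multiples of 100. Of the members, 25 of 118 (21.2%) carried one that is not, against 11.3% of the genes that met the conditions alone and 10.6% of all kept genes. Such numbers come in blocks. The run on A08 at 000165 to 000173 and the D04 group at 164040 to 164160 consist only of them. So do the A09 pair 213634 and 213638, the A11 pair 025701 and 025950, the D09 pair 164440 and 164460 and the D11 pair 025525 and 025575. The 25 members are therefore not separate observations. The difference between the shares was noticed in these data and not tested.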
